A study of Mus musculus with 8 samples.

Results

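The mitosis genes are 46 genes whose products condense, attach, pull apart and divide the chromosomes of a dividing cell. They were named by symbol, each symbol was looked up in the annotation of the array, and each gene was read from its brightest probe set that carries a single symbol. Of the 46 genes, 42 were measured in this way, out of 18820 genes on the array. Ccnb1, Ube2c, Nusap1 and Kif20a had no such probe set and were not analysed here. Adipose tissue macrophages (ATMs) were isolated from epididymal fat of wildtype male C57Bl/6 mice by magnetic selection of F4/80-positive cells and frozen directly, without culture. In each of 4 separate experiments, 1 array held RNA pooled from several obese mice on a high-fat diet (HFD) and 1 array held RNA pooled from several lean mice on a low-fat diet (LFD), so that n = 4 pools per diet. The sample titles name lard for both diets. The HFD held 45% fat by energy in experiments 1 and 3, and 60% when experiments 2 and 4 were run, whereas each LFD held 10%. The diets were fed for 16, 15, 16 and 10 weeks in experiments 1, 2, 3 and 4, and the age of the mice was not given in the sources used here. Levels are log2 values, so that fold changes are powers of 2, and a level under 4.32 (a signal of 20) is called dim.

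Most adult macrophages rest outside the cell cycle, but tissue macrophages can divide where they reside, and in mice local division is one of the known ways by which macrophages accumulate in obese fat. Transcripts for mitosis are made late in the cycle, in G2 and M phase, and decline as the cell leaves mitosis, which is why several of them serve as markers of dividing cells. In resting cells these genes are known to be held silent by a repressor complex, DREAM, which sits on a promoter element called the cell cycle genes homology region (CHR). In dividing cells the same element is bound by B-Myb and FoxM1, and the factor NF-Y binds nearby CCAAT boxes. In pooled RNA, a change in the number of dividing cells and a change in the RNA of each dividing cell cannot be told apart.

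The elements can be seen in the promoters of the mitosis genes. RefSeq windows of 300 bases (250 before and 50 after the annotated start, build GRCm38.p6) were at hand for 40 of the 46 genes, in 42 windows. The letters CCAAT were found on either strand in 33 of the 42 windows (78.6%), against 37.4% of all 32851 promoter windows, and at least 2 copies stood in 57.1%, against 11.7% of all windows. TTTGAA, the core of the CHR, was found in 32 windows (76.2%), against 17.9% of all, and 66.7% of the windows held CCAAT together with TTTGAA, against 7.0% of all. In 44 windows of DNA replication genes, TTTGAA stood in 18.2% and both elements in 6.8%, whereas sites for E2F, the factor of the G1/S transition (TTTCCCGC, TTTCGCGC, TTTGCCGC or TTTGGCGC), stood in 34.1%, against 9.5% of the mitosis windows and 2.3% of all windows. Of 41 matches to TTTGAA in the mitosis genes, 1 overlapped a CCAAT match. The matches are descriptions of the letters and not measured binding sites.

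Hmmr, Spag5, Prc1 and Ect2 are shown as examples of mitosis genes with a small p for diet whose windows hold both elements. Mki67, Ncapd2 and Ncapg also had a small p and hold both, but are not shown. The windows of Nek2, Cenpe and Bub1, whose levels are also given in full below, hold CCAAT without TTTGAA. That of Birc5 holds neither, and for Tpx2 no window was at hand. Each run of 150 bases holds 120 before the start and 30 from it onwards, written 5′ to 3′, with matches to CCAAT and TTTGAA on either strand in capitals (ATTGG and TTCAAA are the same elements read on the opposite strand).
Hmmr (chr11:40733408-40733557, minus strand): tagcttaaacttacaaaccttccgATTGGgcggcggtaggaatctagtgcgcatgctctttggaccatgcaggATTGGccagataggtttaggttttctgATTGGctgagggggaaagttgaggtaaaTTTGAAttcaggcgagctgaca
Spag5 (chr11:78301471-78301620, plus strand): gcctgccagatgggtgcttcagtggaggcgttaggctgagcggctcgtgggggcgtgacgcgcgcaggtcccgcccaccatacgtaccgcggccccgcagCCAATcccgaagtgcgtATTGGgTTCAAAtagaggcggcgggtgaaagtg
Prc1 (chr7:80294331-80294480, plus strand): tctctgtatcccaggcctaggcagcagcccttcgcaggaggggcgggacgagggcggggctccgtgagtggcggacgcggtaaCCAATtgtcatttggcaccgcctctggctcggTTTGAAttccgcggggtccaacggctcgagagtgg
Ect2 (chr3:27153849-27153998, minus strand): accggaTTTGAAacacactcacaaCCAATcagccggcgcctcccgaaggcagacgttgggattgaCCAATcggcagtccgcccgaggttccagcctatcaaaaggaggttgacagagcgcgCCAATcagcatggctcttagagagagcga

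Cdc20, Cenpa and Kif23 are shown beside them because their levels differed least between the diets, as described below, although their windows hold the same elements.
Cdc20 (chr4:118437314-118437463, minus strand): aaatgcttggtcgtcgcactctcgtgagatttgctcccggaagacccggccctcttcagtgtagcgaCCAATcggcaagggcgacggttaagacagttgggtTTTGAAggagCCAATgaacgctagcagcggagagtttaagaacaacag
Cenpa (chr5:30666766-30666915, plus strand): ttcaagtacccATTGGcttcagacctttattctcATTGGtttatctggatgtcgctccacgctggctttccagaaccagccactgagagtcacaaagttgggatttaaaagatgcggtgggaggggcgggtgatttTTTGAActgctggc
Kif23 (chr9:61946770-61946919, minus strand): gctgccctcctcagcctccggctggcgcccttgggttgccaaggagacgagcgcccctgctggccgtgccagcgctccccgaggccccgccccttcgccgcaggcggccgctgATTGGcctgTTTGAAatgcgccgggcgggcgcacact

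**Figure D1:**
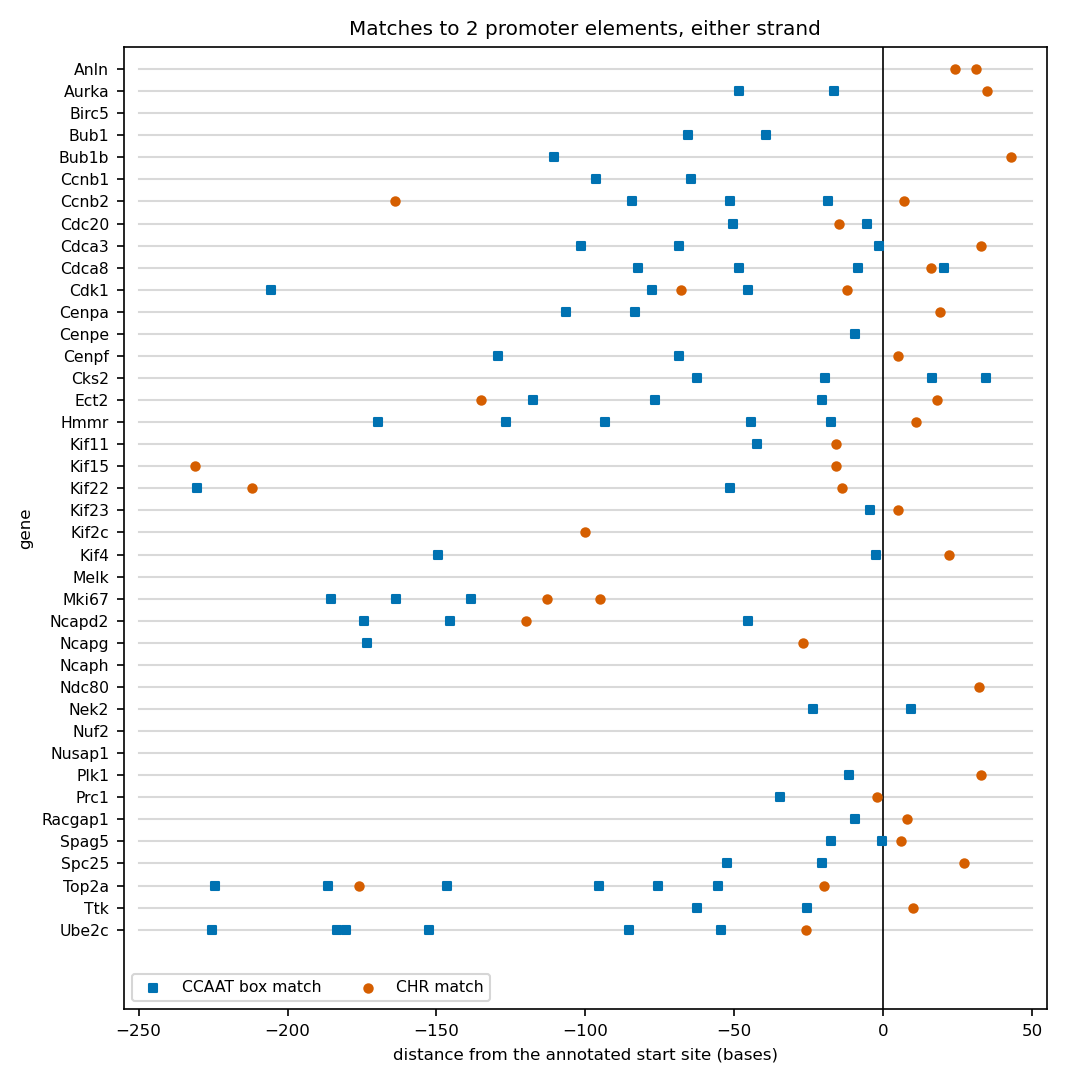
Matches to the CCAAT box (blue squares) and to the core of the cell cycle genes homology region, CHR (orange circles), in the promoter windows of 40 mitosis genes, drawn by their distance in bases from the annotated start site (1 window per gene, either strand). CCAAT matches lay mostly upstream of the start, at a median of -65, and CHR matches around it, at a median of -1.

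Before the diets were compared, the arrays were checked for the cells they held. Adgre1, which encodes F4/80, was bright on 6 arrays (9.95 to 10.95) and lower on the arrays of experiment 1, at 8.58 in the HFD pool and 6.54 in the LFD pool. The mean level of 14 macrophage markers was 9.09 to 10.70 in HFD pools and 7.94 to 11.05 in LFD pools, with experiment 1 lowest in each diet. The mean of 18 endothelial markers was 7.53 to 10.38 in HFD pools and 5.89 to 10.68 in LFD pools, with experiment 1 highest in each diet. The mean of 13 fibroblast, preadipocyte and mural markers was 7.18 to 8.55 in HFD pools and 5.75 to 8.53 in LFD pools. Markers of T cells (mean of 11 genes 4.05 to 4.41 in HFD pools and 3.75 to 4.35 in LFD pools), B and plasma cells (10 genes, 3.46 to 3.71 in HFD pools and 3.76 to 4.03 in LFD pools) and NK cells (9 genes, 3.09 to 3.24 in HFD pools and 3.26 to 3.78 in LFD pools) were near or under the dim limit on average. Dim on every array were 6 of the 11 T cell genes, 7 of the 10 B and plasma cell genes and 6 of the 9 NK genes. Cd3d, Cd3g, Cd8a, Cd79a, Ms4a1 and Ncr1 were among them. The other genes of these lists were not dim on at least 1 array. Neutrophil and mast cell markers (13 genes, 3.27 to 3.95 in HFD pools and 3.30 to 3.50 in LFD pools) and erythroid and bone marrow progenitor markers (7 genes, 3.72 to 3.95 in HFD pools and 3.42 to 4.02 in LFD pools) were as low on average. Of these, 8 of the 13 and 6 of the 7 were dim on every array, among them Klf1, Mpo and Elane. Dendritic cell markers (10 genes) averaged 4.43 to 4.86 in HFD pools and 4.38 to 5.37 in LFD pools, mesothelial markers (8 genes) 3.97 to 4.63 in HFD pools and 3.94 to 4.59 in LFD pools, and adipocyte markers (7 genes) 4.62 to 5.88 in HFD pools and 5.24 to 5.96 in LFD pools. The part of non-macrophage cells in the results below was not tested.

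Measured transcripts of mitosis genes had higher mean levels in ATMs from obese than from lean mice, although no single gene passed the test over all genes. The mean difference (HFD minus LFD) was above 0 for all 42 measured genes, against 51.3% of all genes, and it ranged from 0.02 for Cenpa to 1.05 for Hmmr, that is from 1.01-fold to 2.07-fold. The median over the 42 genes was 0.59 (1.51-fold), against 0.00 over all 18820 genes. Of the 42, 28 were higher in HFD pools by more than 0.5, as were 4.19% of all genes. In 33 of the 42 the HFD pool was higher in all 4 experiments (11.0% of all genes were), and in 0 it was lower in all 4 (7.43% of all genes were). No mitosis gene passed an adjusted p under 0.05 over all genes in limma (smallest adjusted p = 0.982), nor did any other gene (0.0% of all genes). Genes with an unadjusted p under 0.05 are called nominally higher or lower. Of the 42 genes 21 were nominally higher and 0 nominally lower, against 3.3% and 1.51% of all genes. With experiment as a block, which compares each HFD pool with the LFD pool of its own experiment, 35 of the 42 were nominally higher (83.3%) and 0 nominally lower, against 7.95% and 4.16% of all genes, and again 0 passed an adjusted p under 0.05 (smallest adjusted p = 0.0749 for a mitosis gene and 0.0508 for any gene). Once probe sets dim on more than 4 arrays were removed, the blocked fit called 25 of 10623 genes at an adjusted p under 0.05 (0.235%) and 0 mitosis genes. The standard error was smaller with the block for 41 of the 42 genes, with a median of 0.15, against 0.27 without it. With arrays centred on their medians, 11 mitosis genes were nominally higher and 0 lower, while the nominal split over all genes was 312 higher and 402 lower, compared with 621 and 284 without centring. The count of 21 moved when 1 array was left out, and the share of all genes that were nominally higher is given in parentheses. It was 8 without the HFD pool of experiment 3 (1.84%) or the LFD pool of experiment 1 (3.58%). It was 9 without the HFD pool of experiment 4 (1.7%) or the LFD pool of experiment 2 (1.75%). It was 12 without the HFD pool of experiment 2 (2.47%) and 33 without the LFD pool of experiment 4 (3.43%). The median difference then lay between 0.43 and 0.77.

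**Figure D2:**
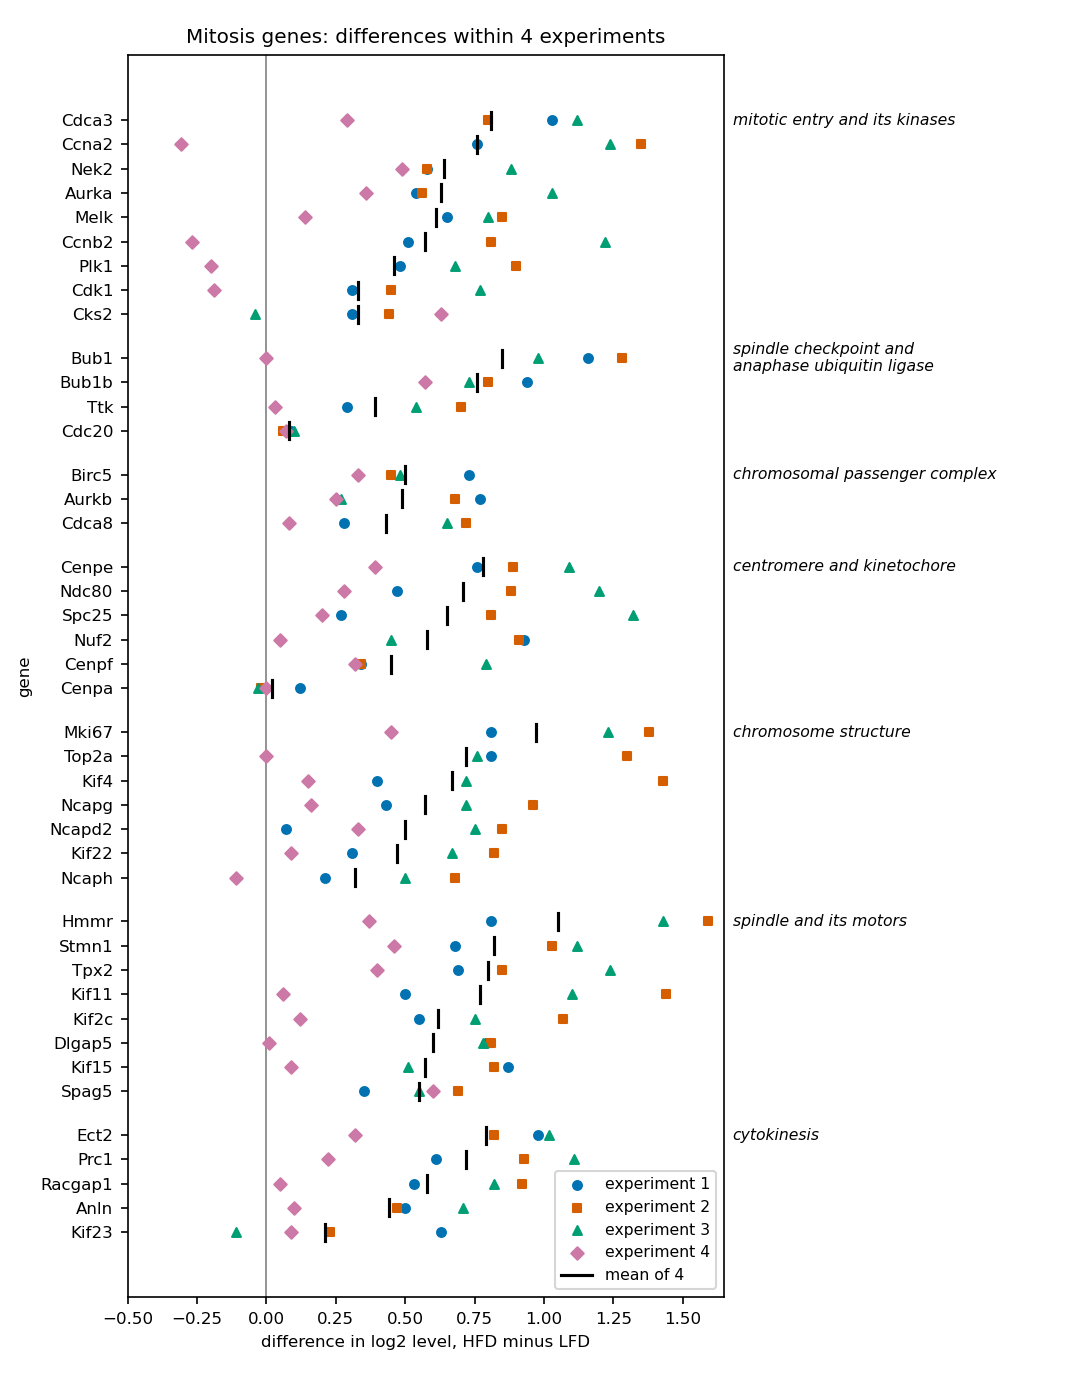
Log2 level in the HFD pool minus that in the LFD pool (horizontal axis) for each of the 42 mitosis genes, which are grouped by role. Symbols stand for the 4 experiments, with a black bar at the mean. The means of all 42 genes lie above 0, and experiment 4 gave the smallest difference in 36 of them.

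Among the genes of mitotic entry, the kinase Nek2, which parts the centrosomes, had levels of 4.37, 4.40, 5.16 and 4.70 in HFD pools of experiments 1 to 4, against 3.78, 3.81, 4.27 and 4.20 in LFD pools. Every HFD pool lay above every LFD pool, and Nek2 was dim in all 4 LFD pools and in 0 HFD pools. The difference was 0.64 (SE 0.21, or 0.10 with experiment as a block, limma, adjusted p = 0.103 with the block). Only Nek2 and Ncapd2 of the 42 genes had groups that did not overlap in this way (1.19% of all genes had). Aurka, which builds the spindle poles, differed by 0.63 (SE 0.26), Cdca3, which in frog extracts helps to degrade the mitotic inhibitor Wee1, by 0.81 (SE 0.35), and Melk, a kinase made in dividing cells, by 0.61 (SE 0.34), each higher in all 4 experiments. The core of the mitotic engine was less even. Ccna2, cyclin A2, differed by 0.76, 1.35, 1.24 and -0.31 in experiments 1, 2, 3 and 4. Ccnb2, a B-type cyclin, differed by 0.51, 0.81, 1.22 and -0.27. Cdk1, the kinase that these cyclins activate, differed by 0.31, 0.45, 0.77 and -0.19, and Plk1, the polo-like kinase, by 0.48, 0.90, 0.68 and -0.20. Thus these 4 genes had higher levels in HFD pools in experiments 1 to 3 and lower levels in experiment 4. Cks2, a small partner of Cdk1, had the opposite exception, with 0.31, 0.44, -0.04 and 0.63. Of the 9 measured genes of this role 4 were higher in all 4 experiments, with a median difference of 0.61.

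Of the spindle checkpoint, which delays anaphase until all chromosomes are attached, Bub1 had levels of 4.51, 4.88, 5.37 and 4.95 in HFD pools and 3.36, 3.60, 4.39 and 4.95 in LFD pools. The groups overlapped through experiment 4, in which the pools had equal levels at this precision, and the LFD pools of experiments 1 and 2 were dim. Its difference was 0.85 (SE 0.36, or 0.23 with experiment as a block, limma, adjusted p = 0.243 with the block). Bub1b, which encodes the checkpoint protein BubR1, differed by 0.94, 0.80, 0.73 and 0.57 in experiments 1 to 4 and had the smallest p of the 42 genes with the block (limma, adjusted p = 0.0749, SE 0.09), while without it the SE was 0.37. Ttk, the checkpoint kinase Mps1, differed by 0.39 (SE 0.20). Cdc20, which activates the ubiquitin ligase that starts anaphase, had nearly the same level on every array, with 5.15, 5.14, 5.16 and 5.21 in HFD pools and 5.06, 5.08, 5.06 and 5.14 in LFD pools. Its whole range over the 8 arrays was 0.15, against a median range of 1.57 over the 42 genes and 0.79 for the next narrowest, and its difference was 0.08 (SE 0.06).

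The chromosomal passenger complex corrects faulty attachments and later marks the site of division. Birc5 (survivin) had levels of 5.24, 5.24, 5.70 and 5.56 in HFD pools and 4.51, 4.78, 5.22 and 5.24 in LFD pools, a difference of 0.50 (SE 0.20, or 0.09 with experiment as a block, limma, adjusted p = 0.154 with the block). Its HFD pools of experiments 1 and 2 were level with the LFD pool of experiment 4. The kinase Aurkb differed by 0.49 (SE 0.39) and Cdca8 (borealin) by 0.43 (SE 0.24), so that all 3 measured members were higher in all 4 experiments.

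At the kinetochore, the motor Cenpe, which carries chromosomes to the spindle equator, had levels of 5.15, 5.64, 6.00 and 5.68 in HFD pools and 4.38, 4.75, 4.91 and 5.30 in LFD pools. The single overlap was the LFD pool of experiment 4 above the HFD pool of experiment 1, and the difference was 0.78 (SE 0.23, or 0.13 with experiment as a block, limma, adjusted p = 0.121 with the block). The 3 measured subunits of the NDC80 complex, which binds microtubules, differed by 0.71 (SE 0.26) for Ndc80, 0.65 (SE 0.29) for Spc25 and 0.58 (SE 0.28) for Nuf2, each higher in all 4 experiments, and Cenpf differed by 0.45 (SE 0.18). Cenpa, the histone variant that marks the centromere, was the exception, with 5.74, 6.52, 6.58 and 6.40 in HFD pools and 5.63, 6.54, 6.61 and 6.40 in LFD pools. Its levels followed the experiment and were lowest in experiment 1 in each diet, as were those of most of the 42 genes. Its difference of 0.02 (SE 0.27) was the smallest of the 42 and became -0.04 with median-centred arrays.

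Among the genes that shape chromosomes, Mki67, which coats mitotic chromosomes and is the usual marker of dividing cells, had levels of 7.46, 8.30, 8.48 and 7.97 in HFD pools and 6.65, 6.92, 7.25 and 7.52 in LFD pools. The LFD pool of experiment 4 lay just above the HFD pool of experiment 1, and otherwise the groups were apart. Its mean was 8.05 ± 0.45 in HFD pools and 7.09 ± 0.38 in LFD pools (SD, n = 4 each), a difference of 0.97 (SE 0.26, or 0.17 with experiment as a block, limma, adjusted p = 0.127 with the block). Condensin I folds chromosomes, and its subunit Ncapd2 had levels of 6.16, 6.42, 6.80 and 6.38 in HFD pools and 6.09, 5.57, 6.04 and 6.05 in LFD pools. All HFD pools lay above all LFD pools, although by only 0.07 in experiment 1, and the difference was 0.50 (SE 0.17, or 0.15 with experiment as a block, limma, adjusted p = 0.298 with the block). A further condensin subunit, Ncapg, had 4.78, 5.41, 5.53 and 4.85 in HFD pools and 4.36, 4.44, 4.80 and 4.69 in LFD pools, a difference of 0.57 (SE 0.20, or 0.15 with experiment as a block, limma, adjusted p = 0.232 with the block). Ncaph, the subunit that joins the complex, differed by 0.32 (SE 0.19) and was lower in HFD pools in experiment 4 (-0.11). Top2a, the topoisomerase that untangles chromosomes, differed by 0.72 (SE 0.31), and the chromosome-bound motors Kif4 and Kif22 differed by 0.67 (SE 0.27) and 0.47 (SE 0.22).

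The genes of the spindle had the largest median difference among the roles, 0.70, and all 8 measured were higher in all 4 experiments. Hmmr, which focuses spindle poles and also serves as a hyaluronan receptor, had levels of 4.74, 5.42, 5.64 and 5.22 in HFD pools and 3.94, 3.83, 4.22 and 4.85 in LFD pools. It was dim in the LFD pools of experiments 1, 2 and 3, and only the LFD pool of experiment 4 reached into the range of the HFD pools. Its difference of 1.05 (SE 0.27, or 0.22 with experiment as a block, limma, adjusted p = 0.177 with the block) was the largest of the 42. Tpx2, which targets Aurora A to the spindle, had 6.24, 6.42, 7.07 and 6.87 in HFD pools and 5.55, 5.57, 5.83 and 6.47 in LFD pools, a difference of 0.80 (SE 0.26, or 0.15 with experiment as a block, limma, adjusted p = 0.142 with the block). Spag5 (astrin) had 4.38, 4.67, 5.14 and 4.80 in HFD pools and 4.03, 3.98, 4.59 and 4.20 in LFD pools, a difference of 0.55 (SE 0.19, or 0.09 with experiment as a block, limma, adjusted p = 0.117 with the block). Spag5 was dim in the LFD pools of experiments 1, 2 and 4. For each of these spindle genes the groups overlapped through 1 LFD pool, that of experiment 4 for Hmmr and Tpx2 and that of experiment 3 for Spag5. Stmn1, which takes microtubules apart, differed by 0.82 (SE 0.33) and the motors Kif11, Kif2c and Kif15 by 0.77 (SE 0.31), 0.62 (SE 0.37) and 0.57 (SE 0.31). Dlgap5, which steadies spindle fibres, differed by 0.60 (SE 0.33).

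Cytokinesis divides the cell body. Prc1, which bundles the microtubules of the central spindle, had levels of 5.63, 5.80, 6.49 and 5.85 in HFD pools and 5.02, 4.86, 5.38 and 5.63 in LFD pools, a difference of 0.72 (SE 0.23, or 0.16 with experiment as a block, limma, adjusted p = 0.193 with the block). The LFD pool of experiment 4 and the HFD pool of experiment 1 were level at 5.63. Ect2, which activates RhoA to draw the furrow in, had 5.87, 6.12, 6.77 and 6.19 in HFD pools and 4.89, 5.30, 5.75 and 5.87 in LFD pools, a difference of 0.79 (SE 0.27, or 0.14 with experiment as a block, limma, adjusted p = 0.127 with the block). Racgap1 and Anln, which organise the furrow, differed by 0.58 (SE 0.27) and 0.44 (SE 0.23). Kif23, the motor that partners Racgap1 at the midzone, did not follow it. Its levels were 6.07, 6.85, 6.90 and 6.62 in HFD pools and 5.44, 6.62, 7.0 and 6.53 in LFD pools, a difference of 0.21 (SE 0.34). Like Cenpa it was lowest in experiment 1 in each diet, a trait shared by most of the 42 genes. Apart from Cdc20, Cenpa and Kif23, which were singled out after their values were seen, the smallest mean difference among the other 39 genes was 0.32.

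**Figure D3:**
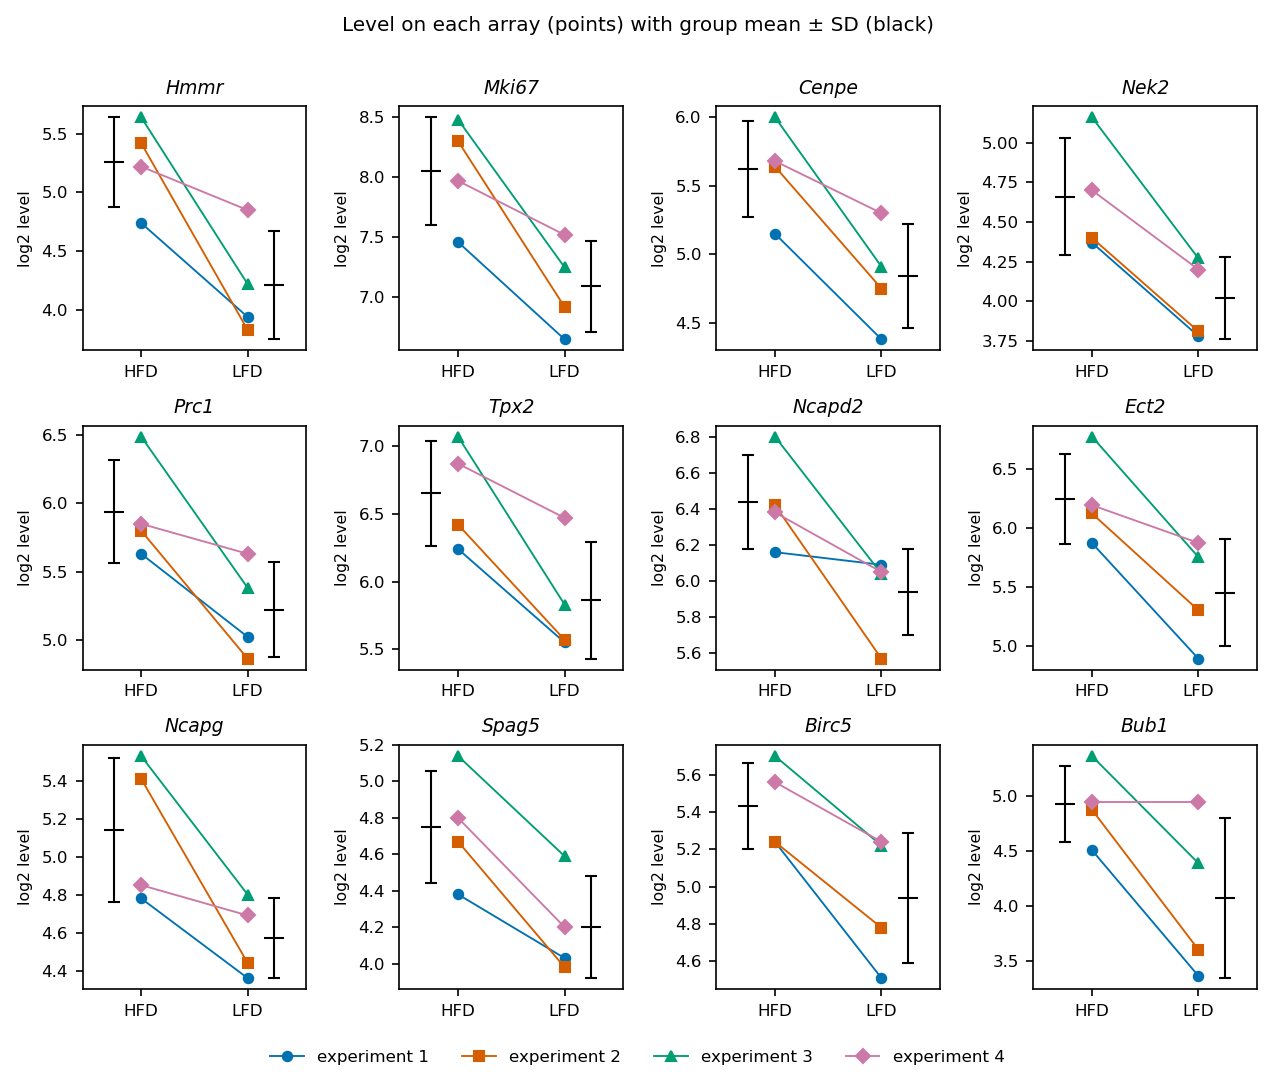
Log2 level (vertical axis) of 12 mitosis genes on each array, for the HFD pool and the LFD pool of each experiment joined by a line. Black bars give the group mean ± SD (n = 4 pools per diet). Lines fall from HFD to LFD in nearly every experiment and are flattest in experiment 4 for most genes, with the Bub1 line level there.

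The size of the difference was not even between experiments. The median over the 42 genes was 0.55, 0.82, 0.77 and 0.14 in experiments 1, 2, 3 and 4, while over all genes it was between -0.01 and 0.02. The HFD pool was higher for 42, 41, 39 and 35 of the 42 genes in experiments 1, 2, 3 and 4, against 45.8%, 53.6%, 43.1% and 52.6% of all genes. Experiment 4, the shortest at 10 weeks, gave the smallest of the 4 differences for 36 of the 42 genes, as it did for 22.9% of all genes. Its LFD pool had the highest level among lean pools for 31 of the 42 genes, whereas its HFD pool was highest among obese pools for 2, and the HFD pool of experiment 3 was highest for 40. The mean level over the 42 genes was 5.39, 5.82, 6.23 and 5.88 in HFD pools and 4.82, 5.01, 5.45 and 5.70 in LFD pools of experiments 1 to 4. Experiment 1 had the lowest level for 41 of the 42 genes among HFD pools and for 33 among LFD pools, and its pools were also those with low macrophage and high endothelial markers. How often each pool was highest or lowest over all genes was not counted. Whether these counts are particular to the mitosis genes is therefore not known. In experiments 1 to 4 the mean of the endothelial markers was 10.38, 7.84, 7.88 and 7.53 in HFD pools. In LFD pools it was 10.68, 8.70, 5.89 and 9.23. The median difference of the mitosis genes was 0.55, 0.82, 0.77 and 0.14 in the same order. Whether macrophage or endothelial content plays a part in these differences was not tested. Without both arrays of experiment 1 the median of the mean differences was 0.61, with 20 mitosis genes nominally higher and 0 lower (limma). In that fit 6.26% of all genes were nominally higher.

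**Figure D4:**
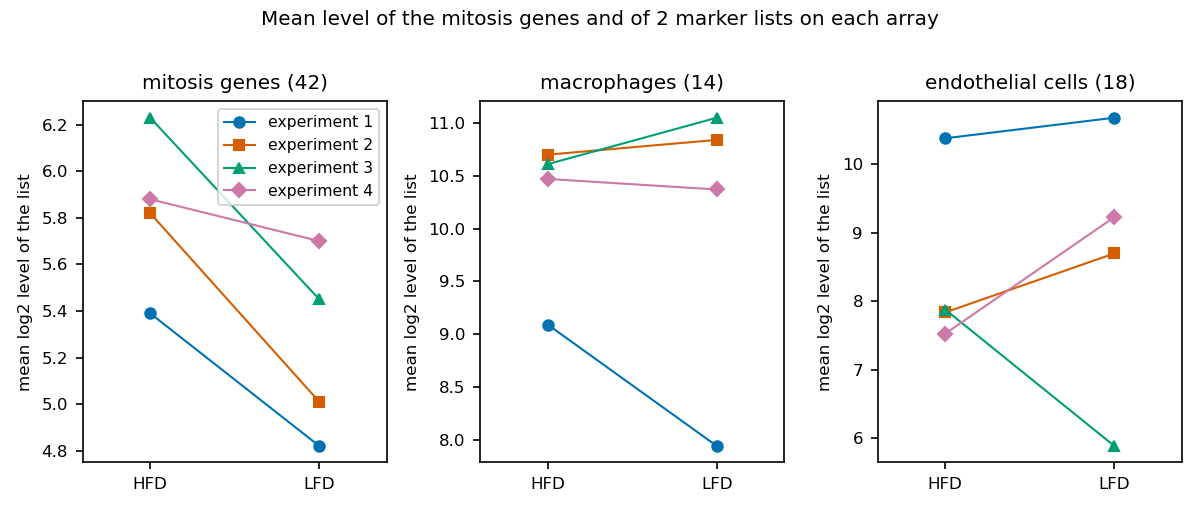
Mean log2 level (vertical axis) of the 42 mitosis genes, of 14 macrophage markers and of 18 endothelial markers on each array, with the HFD pool left and the LFD pool right and a line for each experiment. The mitosis mean is higher in the HFD pool in all 4 experiments. The macrophage mean and the endothelial mean are each higher in the HFD pool in some experiments and lower in others.

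The HFD held 45% or 60% fat, and a test of whether the difference depended on that (limma, interaction of diet with fat content, experiment as a block) called 0 mitosis genes, with a smallest adjusted p of 0.951 and 0 genes nominally different, against 3.95% of all genes. The difference at 60% fat minus that at 45% fat ranged from -0.59 to 0.39 and was above 0 for 4 of the 42 genes, Cks2, Ncapd2, Kif4 and Spag5. The share of all genes above 0 in that comparison was not counted, so this count has no background beside it. With 2 experiments for each fat content, of which one at 60% lasted 10 weeks, fat content and time on diet cannot be told apart.

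The rest of the cell cycle was set beside the mitosis genes. Over all genes, 11.0% were higher in all 4 experiments and 7.43% lower. In limma 3.3% of all genes were nominally higher and 1.51% lower, or 7.95% and 4.16% under the block. Of 59 other measured mitosis genes, 23 were higher in all 4 experiments and 0 lower, with a median difference of 0.30, and 10 were nominally higher and 1 lower, or 25 and 1 under the block. Smc2, a core subunit of condensin, had 6.22, 6.55, 6.68 and 6.56 in HFD pools and 6.02, 5.86, 6.12 and 6.06 in LFD pools, with all HFD pools above all LFD pools (0.49, SE 0.12). Sgo2a, which protects cohesion at centromeres, differed by 0.47 (SE 0.16), Pimreg by 0.44 (SE 0.14) and Ckap2 by 0.39 (SE 0.12). Espl1, the separase that opens cohesin, differed by 0.07 (SE 0.15) and was dim in 3 HFD and 2 LFD pools. Of 42 measured DNA replication genes, 23 were higher in all 4 experiments and 0 lower, with a median of 0.29, and 6 were nominally higher and 0 lower, or 22 and 0 under the block. Rrm2, which makes deoxynucleotides, had 6.08, 6.18, 6.89 and 6.40 in HFD pools and 5.41, 5.11, 5.26 and 6.01 in LFD pools (0.94, SE 0.24), with no overlap. Chaf1b, which loads histones on new DNA, differed by 0.74 (SE 0.24), Clspn, of the replication checkpoint, by 0.73 (SE 0.25) and Prim2, of primase, by 0.45 (SE 0.17), against 0.46 (SE 0.29) for the helicase subunit Mcm2. By experiment, the median of the replication list was 0.30, 0.50, 0.30 and 0.20.

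Lists of regulators had smaller medians than the mitosis genes. Over all genes 3.3% were nominally higher and 1.51% lower, or 7.95% and 4.16% under the block. Nominally higher were 4.55% of the entry and exit genes, 5.88% of the MuvB, B-Myb and FoxM1 regulators and 7.69% of the G1 list. Each of these shares is a single gene. Under the block they were 22.7%, 11.8% and 23.1%. Among 22 genes that control mitotic entry and exit the median was 0.16, with 1 higher (Ccnf, a cyclin of a ubiquitin ligase, 0.61, SE 0.24) and 0 lower nominally, or 5 and 0 under the block. Cks1b and Mastl of this list differed by 0.33 (SE 0.15) and 0.49 (SE 0.23), and Cdc25c was dim on all 8 arrays. Among 17 MuvB, B-Myb and FoxM1 regulators the median was 0.05, with 1 higher (E2f8, a repressor made in S phase, 0.90, SE 0.35) and 0 lower nominally, or 2 and 1 under the block. Mybl2, which encodes B-Myb, differed by 0.54 (SE 0.29) and was higher in all 4 experiments, Lin9, a MuvB subunit, differed by 0.09 (SE 0.25), and Lin52 by -0.23 (SE 0.11). Among 13 G1 cyclins, kinases and E2F activators the median was 0.10, with 1 higher (Ccne1, cyclin E1, 0.42, SE 0.15) and 0 lower nominally, or 3 and 1 under the block. Cdk6 differed by 0.62 (SE 0.43), E2f1 by 0.41 (SE 0.42), the brake Rb1 by -0.25 (SE 0.12) and Ccnd1 by 0.04 (SE 0.23).

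Of 20 genes that restrain the cycle 6 were nominally higher and 1 lower, or 6 and 2 under the block, with a median of 0.16. Plk2, a stress-induced polo-like kinase, had 10.41, 10.89, 10.92 and 11.18 in HFD pools and 10.12, 9.55, 9.71 and 10.28 in LFD pools (0.94, SE 0.22), with no overlap. Btg1, which slows proliferation, differed by 0.49 (SE 0.16), Gadd45b, a stress gene, by 0.44 (SE 0.15) and Ccng2 by 0.34 (SE 0.14), whereas Cdkn1b, the inhibitor p27, had a difference of -0.32 (SE 0.18), with the HFD pool below the LFD pool each time. Among 14 growth signals and self-renewal factors of macrophages none was nominally different in limma, and 2 were nominally higher and 2 lower under the block, with a median of 0.04. Under the block 7.95% of all genes were nominally higher and 4.16% lower. Csf2ra, a receptor chain for GM-CSF, differed by 1.01 (SE 0.71) and Myc by 0.59 (SE 0.34), each higher in all 4 experiments. Maf, which restrains self-renewal of macrophages, differed by -0.47 (SE 0.69) and the receptor Il6ra by -0.31 (SE 0.49), each lower in all 4. Csf1r, the receptor for the main macrophage growth factor, differed by 0.14 (SE 0.72), and its ligand Csf1 had an SE of 0.80 around a difference that rounds to 0.00.

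**Figure D5:**
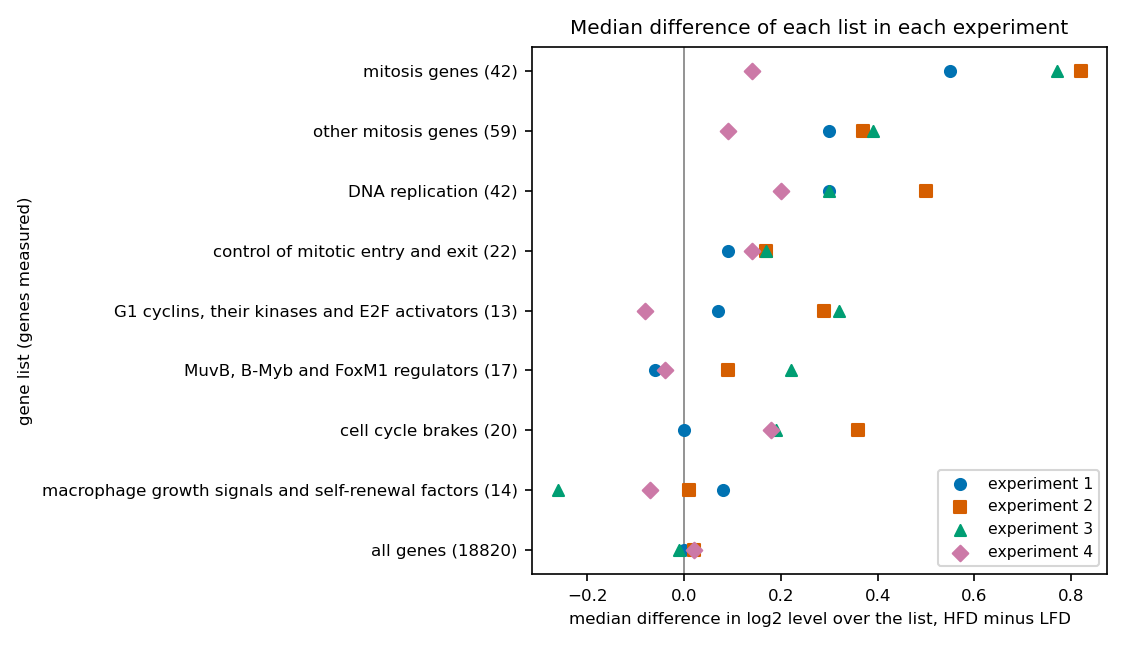
Median difference in log2 level (HFD minus LFD, horizontal axis) over each cell cycle list and over all genes, with 1 symbol per experiment and the number of genes measured in parentheses. The mitosis genes lie at 0.55, 0.82, 0.77 and 0.14 in experiments 1 to 4, and all genes lie between -0.01 and 0.02.

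Signal and probe sets set limits on single genes. Of the 42 genes 11 were dim in at least 1 LFD pool and 2 (Ttk and Spc25) in an HFD pool, and none was dim on more than 4 arrays. For Cks2, Top2a, Kif11, Stmn1 and Prc1 other probe sets were present. The alternative Stmn1 probe set gave the same difference (0.82), whereas the other Prc1 probe set, at a mean level of 2.31, gave 0.15 and was higher in 1 of 4 experiments. The other Top2a probe sets, at mean levels of 3.34 and 1.84, gave 0.42 and 0.05, against 0.72 for the one used. The other Kif11 probe set, at 2.47, gave 0.40, against 0.77, and the other Cks2 probe sets gave 0.21 and 0.17, against 0.33. With the mean of all probe sets the difference was 0.39 for Top2a and 0.43 for Prc1, against 0.72 for each with the brightest.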

How the data were processed

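RNA of ATM pools was hybridised to Affymetrix whole-transcript arrays. The deposited values are log2 levels, made by the authors with RMA according to the submitters' processing notes (background correction, quantile normalisation, probe summary), its version not given in the sources used here. Array medians were 4.25 to 4.39, and precision is limited by having 8 arrays. Among 35556 features, 21218 carried 1 gene symbol, 1881 several and 12457 none in the platform annotation, which gave 18820 genes. For 1386 genes with several probe sets the brightest was used.

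HFD and LFD arrays were compared over all genes with limma 3.58.1 (lmFit, eBayes, R 4.3.3) and Benjamini-Hochberg adjustment over all genes, with a threshold of 0.05. The experiment number in the labels pairs the arrays. Deviations of paired arrays from their diet means correlated across genes (not independent replicates) at r = 0.889, 0.357, 0.652 and 0.186, so blocked values stand beside counts that they move. The fits were also run on simulated data, the outcome of which is not reported here. The members and gene lists were chosen with earlier results of these data known, and their counts are descriptions, given beside those of all genes. Values on every array are given for the 10 members with the smallest p, for the smallest p of each role and for 3 members singled out after their values were seen. Of other lists up to 4 genes with the smallest p are named, and up to 2 well-known ones. Alternatives were a fixed or a random block, leave-one-out fits by array and by experiment, each fat content alone, median centring, removal of probe sets that were dim (below 4.32) on more than 4 arrays, the mean of probe sets, a trended robust prior and the methods' t-test. Promoters came from a RefSeq table (GRCm38.p6), in which 6 of the 46 genes were not matched.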

Additional observations from a re-analysis of the deposited data

Results flagged for a closer look

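The level of Ncapd2 in the LFD pool of experiment 2 (5.57) lay far below the other LFD pools (6.04 to 6.09), so that its gap took up nearly the whole range of that diet. It was the only such value among 84 sets of 4 pools (42 genes, HFD and LFD), of which about 1 in 20 is expected to be picked out by chance.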

How the results depend on the processing

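No mitosis gene passed an adjusted p under 0.05 in any of the 26 alternatives. In limma under the block, once dim probe sets were removed, 25 of 10623 genes did (0.235%, smallest adjusted p of a mitosis gene 0.0624). In these alternatives 0 mitosis genes were lower at an unadjusted p under 0.05, and their median difference stayed between 0.43 and 0.77. The count of mitosis genes higher at an unadjusted p under 0.05 in limma (21) moved, and so did the share of all genes that were higher (3.3%), given here in parentheses. It was 35 with experiment as a replicate block (7.95%), 34 with a random block (7.24%), 35 under the block once dim probe sets were removed (11.4%), 38 under the block without both arrays of experiment 4 (5.69%), 12 with the methods' t-test (2.78%) and 11 with centred arrays (1.66%). It was 8 without both arrays of experiment 3 (2.51%), 2 without both of experiment 2 (1.23%), 6 with the 60% fat experiments alone (6.49%) and 0 with the 45% ones alone (0.473%), which leave 2 pools per diet. With 1 array left out it lay between 8 and 33. It was 8 without the HFD pool of experiment 3 (1.84%) or the LFD pool of experiment 1 (3.58%), and 9 without the HFD pool of experiment 4 (1.7%) or the LFD pool of experiment 2 (1.75%). It was 12 without the HFD pool of experiment 2 (2.47%) and 33 without the LFD pool of experiment 4 (3.43%). The cause was not tested. The number higher in every experiment was 33 with centred arrays (6.23% of all genes) and with averaged probe sets (10.8%), and 33 to 39 when an experiment was left out, which asks for only 3 (13.7% to 19.4%). With the replicate block, 25 other mitosis genes (10 without it), 22 replication genes (6), 5 entry and exit genes (1), 3 G1 genes (1), 2 MuvB, B-Myb and FoxM1 regulators (1) and 2 growth signals (0) were higher at an unadjusted p under 0.05. Over all genes the block gave 1497 higher (7.95%), against 621 without it (3.3%). Of the 42 differences 40 kept their direction throughout. That of Cenpa turned to -0.04 with centred arrays, -0.01 with 60% fat alone, -0.02 without both arrays of experiment 1 with or without the block, and lay between -0.21 and 0.20 with 1 array left out. That of Kif23 lay between -0.11 and 0.41 with 1 array left out.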
